A study of Drosophila melanogaster with 4 samples.

Results

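Somatic gonadal precursors (SGPs) are the mesodermal cells that enclose the germ cells and build the Drosophila embryonic gonad. The nuclei described here are SGP nuclei of a single 10x multiome library, in which the RNA and the open chromatin of the same nucleus were read together, and they were sexed by the share of their ATAC counts that lay on the X chromosome. Nuclei were chosen by at least 1000 ATAC counts, at least 2 unique molecular identifiers (UMIs) of tj, eya, Six4, and Wnt2 together, and no more UMIs of 9 germ cell genes (nos, vas, pgc, zpg, aub, AGO3, gcl, ovo, and tej) than of these 4. This left 97 of 3022 nuclei. An X share of at most 15% was read as male (49 nuclei) and of at least 18% as female (36 nuclei), while 12 nuclei between these limits stayed unsexed.

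All nuclei came from embryos that carry vas-GFP transgenes, which mark the germline, collected from 0 to 20 h after egg laying and pooled over ages. Germ cells or whole gonads were sorted by GFP, so SGPs entered the library as part of sorted gonads, which were lysed without first being taken apart. There was no other genotype or treatment, and the sexes shared every step up to the reading of the X share. As there was 1 library, nuclei are not replicates, no test between the sexes was possible, and all intervals are exact 95% intervals that cover counting error only. Fewer nuclei of a type and less RNA per nucleus cannot be told apart in the pooled values.

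In flies, sex is set in each somatic cell by its X chromosomes. A double dose of X chromosomes switches on Sxl (Sex-lethal), which directs the female splicing of tra and, through it, of dsx (doublesex), whose female and male proteins bind the same short DNA element. Male somatic cells with their single X instead assemble the MSL complex on the noncoding RNAs roX1 and roX2, which raises transcription from that X. tj marks SGPs of both sexes, and a set of male-specific SGPs marked by Six4 and by the posterior Hox gene Abd-B joins the gonad of males.

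The X share chose the sexes and is given as a description. It ran from 10.4% to 14.5% with a median of 12.7% in male nuclei, and from 18.2% to 28.4% with a median of 20.3% in female nuclei. The 3 male nuclei nearest the limit were at 14.3%, 14.3%, and 14.5%, and the nearest nuclei just outside it were at 15.1%, 15.6%, and 15.7%. On the other side the lowest female nuclei were at 18.2%, 18.2%, and 18.3%, and the nearest unsexed ones at 17.6%, 17.8%, and 17.8%. Pooled over nuclei, ATAC counts on the X relative to the autosomes were 1.72 times as high in females as in males.

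The 4 genes that admitted the nuclei were not shared evenly by the sexes. tj, a large Maf transcription factor of the gonadal soma, had UMIs in 32 of 36 female and 20 of 49 male nuclei, while Wnt2, a Wnt ligand, had them in 20 female and 39 male nuclei. Six4, a homeobox gene, was seen in 9 female and 19 male nuclei, and its partner eya in 1 and 12. So a female nucleus usually entered through tj and a male one through Wnt2, and the leading genes below are also given within the nuclei that held tj (32 female, 20 male) and within those that held Wnt2 (20 female, 39 male).

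Genes that took no part in the choice gave a check of the label. In UMIs per 1000000 UMIs of the pooled nuclei (CPM), zfh1, a zinc finger gene of the early gonadal mesoderm, reached 451 CPM in females and 236 CPM in males (380.2 and 379 CPM without nuclei over 30000 UMIs). Germ nuclei, chosen as having at least 2 germ gene UMIs and 0 UMIs of the 4 gonadal genes (336 female, 283 male by the same X limits), held zfh1 at 68.6 and 63.8 CPM. The adhesion gene Fas3 was at 905 and 1012 CPM in the SGP nuclei against 113 and 166 CPM in germ nuclei. abd-A, a Hox gene needed for SGP fate, was at 118 and 137 CPM (162 and 116 CPM without nuclei over 30000 UMIs) against 13.5 and 18.2 CPM. Markers of other tissues were also present. Nuclei with under 3 UMIs of muscle, neuron, glia, and hemocyte markers together numbered 27 female and 34 male. They held 90352 of the 321540 female and 185229 of the 932681 male UMIs. The 7 muscle genes together were at 255 CPM in females (3 of them at 0) and 124 CPM in males (0 of them at 0), and their part in the results below was not tested. There were 28.0 and 27.9 CPM for 6 neuronal genes, and 18.7 and 20.4 CPM for 7 hemocyte genes. The 5 glial genes together were at 31.1 CPM in females and 20.4 CPM in males. Single markers could be absent, as repo (glia) and Hml (hemocytes) were at 0 in both sexes.

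Depth was uneven. Female nuclei held 1072 to 130854 UMIs with a median of 3238, and male nuclei 1156 to 144663 with a median of 4345. The deepest female nucleus alone carried 40.7% of the 321540 female UMIs, and the 9 male nuclei over 30000 UMIs carried 78.8% of the 932681 male UMIs. Values without the nuclei over 30000 UMIs, which left 34 female and 40 male nuclei, are given for most genes that this moved by over 1.5 times and for some others. The deepest female nucleus held 65 UMIs of the 4 gonadal genes and also 57 of the germ genes, and the deepest male nucleus 110 and 43. The part of germ cell RNA in their values was not tested, nor whether each deep nucleus was a single one.

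The roX RNAs, which the X accessibility did not use, differed between the sexes in most nuclei. roX1 was present in 47 of 49 male nuclei with 1427 UMIs and in 12 of 36 female nuclei with 71 UMIs. Per nucleus its median was 1733 CPM in males (lowest 0, highest 12810) and 0 in females (highest 4571). Pooled, roX1 was at 1530 CPM in males and 221 CPM in females, which made it 6.93-fold higher in males (5.46 to 8.92), and 5.08-fold without nuclei over 30000 UMIs. Thinned to 1000 UMIs per nucleus, 79.6% of male and 16.7% of female nuclei still held a roX1 UMI. roX2 followed with 187 CPM in males and 56.0 CPM in females.

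The female roX1 signal lay in few nuclei. Of the 71 female UMIs, 60 came from 4 nuclei with 8, 14, 18, and 20 UMIs, at X shares of 18.2%, 20.2%, 18.2%, and 19.8%. The 2 male nuclei without roX1 had X shares of 12.1% and 12.99% and 2910 and 2570 UMIs. Of the 12 unsexed nuclei, 10 held roX1, and the other two had X shares of 17.6% and 17.8%. Y chromosome counts were too few to sort nuclei. They came to 48 ATAC counts in females (241 per 1000000 autosomal counts) and 115 in males (334), of which a single peak held 2 and 30. Y-linked transcripts gave 9 and 33 UMIs in all, among them kl-5 with 1 and 11 and WDY with 5 and 16.

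**Figure D1:**
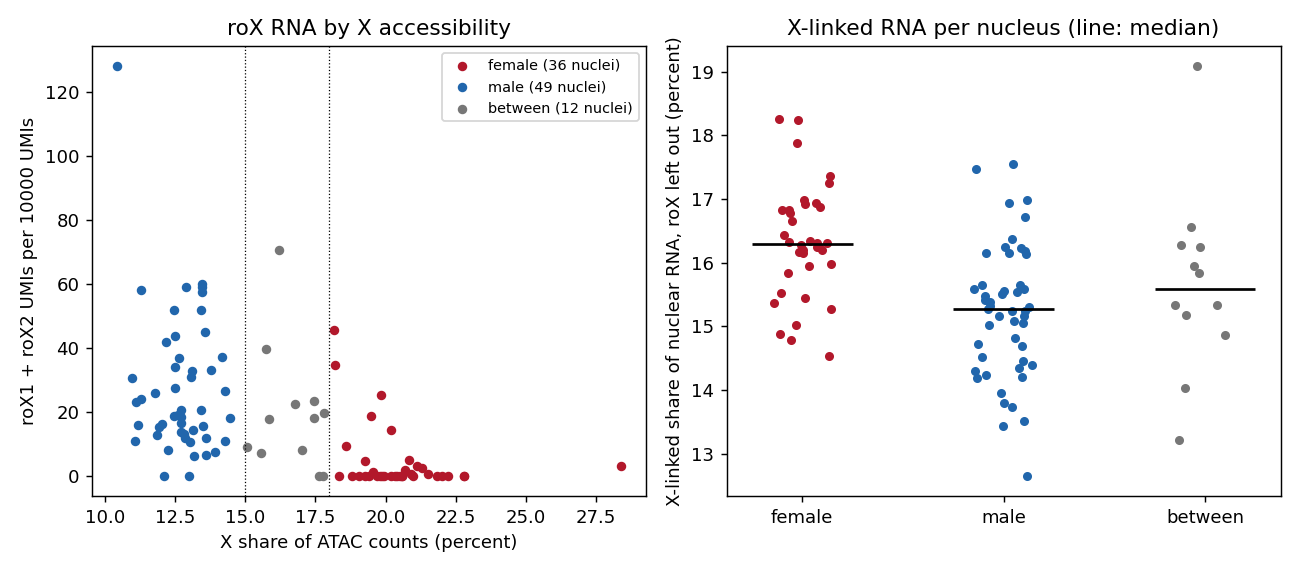
Left, roX1 and roX2 UMIs per 10000 UMIs against the X share of ATAC counts in percent for the 97 nuclei, with dotted lines at the limits of 15% and 18%. Right, X-linked share of nuclear RNA in percent without the roX genes, 1 point per nucleus with the median as a line. Male nuclei spread between 0 and 128 roX UMIs per 10000 around a median of 20.6, most female nuclei lie at 0, and in the right panel the female and male points overlap over most of their range.

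X-linked genes gave a slightly larger share of the RNA in female nuclei. It was 16.5% (16.3 to 16.6) of the X-linked and autosomal UMIs in female and 15.3% (15.2 to 15.4) in male SGP nuclei. Per nucleus the share had a median of 16.3% in females (14.8% to 18.3%) and 15.5% in males (13.1% to 18.8%), so the groups overlapped. X-linked relative to autosomal RNA was thus 1.09 times as high in females (1.08 to 1.10), or 1.10 without roX1 and roX2. The ratio for ATAC counts was fixed by the choice of nuclei and is not set against it. In the germ nuclei the RNA ratio was 1.25 (1.24 to 1.26), with 16.3% of female and 13.5% of male UMIs from the X. Among the 1983 genes with at least 50 UMIs in the sexed SGP nuclei, the median ratio of female to male CPM was 1.14 for the 341 X-linked genes, and for the arms 2L, 2R, 3L, and 3R it lay between 1.00 and 1.05. The 42 genes of chromosome 4 had a median ratio of 1.22, above that of the X.

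Across all chromosomes, 170 of the 1983 genes were at least 2-fold higher in female nuclei (8.57%) and 209 at least 2-fold higher in male nuclei (10.5%). For 72 and 71 of these the whole counting interval lay past 2-fold. In both directions most of the genes were autosomal, though of the X-linked genes 14.1% were past 2-fold in females and 8.50% in males. Of the genes that were also past 2-fold as a mean over nuclei and present in at least 10 nuclei, 109 higher in females and 155 higher in males, the 15 in each direction whose interval lay farthest from 1 are described next.

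In females the most abundant of these genes were CG17839 and CG32850. CG17839 had 3104 CPM in females and 169 CPM in males, an 18.3-fold difference (15.5 to 21.8), with medians of 2574 and 111 CPM per nucleus. CG32850 was at 3054 and 166 CPM, 18.4-fold apart (15.5 to 21.9), and was detected in 35 of 36 female nuclei. Without the deep nuclei CG17839 was 12.9-fold and CG32850 11.9-fold higher in females. IRSp53, whose product couples the membrane to actin, was at 1101 CPM (median 1027) in females and 31.1 CPM (median 0) in males, or 35.4-fold (24.2 to 53.6), and 16.3-fold without the deep nuclei. It was detected in 97.2% of female and 28.6% of male nuclei (63.9% and 6.12% after thinning), and it was at 70.0 and 18.7 CPM in female and male germ nuclei.

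The X-linked CG32816 had the interval farthest from 1, with 330 UMIs in female and 11 in male nuclei, 87.0-fold higher in CPM (48.0 to 176). The potassium channel KCNQ was at 728 and 32.2 CPM (22.6-fold) and the neuronal adhesion gene Dscam2 at 308 and 10.7 CPM (28.7-fold). Genes of metabolism and cuticle were also among them: the maltase Mal-A5 (101 and 4 UMIs), the esterase alpha-Est1 (61 and 2), and the cuticle protein Cpr67Fa2 (91 and 2). The others were Kank (20.7-fold), CG17684 (21.9-fold), fal (19.6-fold), CG2082 (17.8-fold), the extracellular matrix gene mspo (29.6-fold), and the ribosomal precursor pre-rRNA:CR45845 (20.0-fold). The last is a repeated gene whose reads may come from any copy, and with 970 CPM in female germ nuclei it was more abundant there than in female SGP nuclei. Without the deep nuclei the ratio was 54.0 for CG32816, 53.1 for both Cpr67Fa2 and CG17684, 19.1 for Mal-A5, and 18.5 for alpha-Est1. It was 8.64 for both Dscam2 and mspo, 7.11 for pre-rRNA:CR45845, and 6.71 for Kank.

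Of these 15 genes, 14 were over 2-fold more abundant in female SGP nuclei than in either germ class, and 13 had a male SGP level at or under the higher germ level. CG32850, for instance, was at 167 and 122 CPM in female and male germ nuclei, around its 166 CPM in male SGP nuclei. The germ nuclei were chosen to lack UMIs of the 4 gonadal genes only. CG32850 had UMIs in 58.3% of female and 53.0% of male germ nuclei. The source of these levels was not tested.

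Among genes higher in males, CG9628 had 1 UMI in female and 489 in male nuclei (3.11 and 524 CPM), a ratio of 169 with a lower bound of 30.1. CG34355 had 1 and 198 UMIs and nord, a secreted modulator of signaling, 1 and 117. SPARC, a collagen-binding protein of basement membranes, was at 112 CPM in females and 885 CPM in males, 7.90-fold higher in males (5.66 to 11.4). CG42342 was at 121 and 947 CPM, 7.81-fold higher (5.66 to 11.1). rost (rolling stone), a membrane protein of myoblast fusion, had UMIs in 4 of 36 female and 30 of 49 male nuclei, at 12.4 and 330.2 CPM (26.5-fold, 10.3 to 98.0). Pka-C3, a catalytic subunit of protein kinase A, had 2 UMIs in females and 143 in males.

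In 4 of the 15 male genes the female count was 0, so that only a bound can be given against a floor of 3 counts over the female nuclei. Jheh2, a juvenile hormone epoxide hydrolase, was at least 10.2-fold higher in males (89 UMIs), the lipid transfer protein gene Esyt2 at least 8.16-fold (71 UMIs), and the immune receptor PGRP-LC and CG42792 each at least 5.98-fold (52 UMIs). The remaining genes were roX1, CG6084, Kal1, and upd1. Without the deep nuclei rost was 16.7-fold and Kal1 43.8-fold higher in males. upd1 then had 1 and 12 UMIs (9.72-fold, 1.44 to 416). CG6084 had only 1 and 5 UMIs, 4.05-fold higher in males with an interval that included 1 (0.45 to 192). The bounds were then at least 2.70-fold for Jheh2 (10 male UMIs), 2.43-fold for PGRP-LC (9), 4.32-fold for Esyt2, and 9.99-fold for CG42792. CG34355 and nord lost their single female UMI and were at least 20.3-fold and 12.96-fold higher in males. All 15 male genes were over 2-fold more abundant in male SGP nuclei than in either germ class.

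The same 30 genes were also read within the nuclei that held tj or Wnt2. As the genes were selected on these nuclei, and the female nuclei with tj held 311994 of the 321540 female UMIs and the male ones 803267 of the 932681 male UMIs, these values are a description and no separate support. Within tj-positive nuclei the 15 female genes were 17.0- to 250-fold higher in females, and within Wnt2-positive nuclei 19.1- to 241-fold. The 15 male genes, with bounds where the female count was 0, were 2.20- to 135-fold higher in males with tj and 4.65- to 54.6-fold with Wnt2. Without nuclei over 30000 UMIs the ranges were 6.71- to 54.0-fold and 2.43- to 160-fold.

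**Figure D2:**
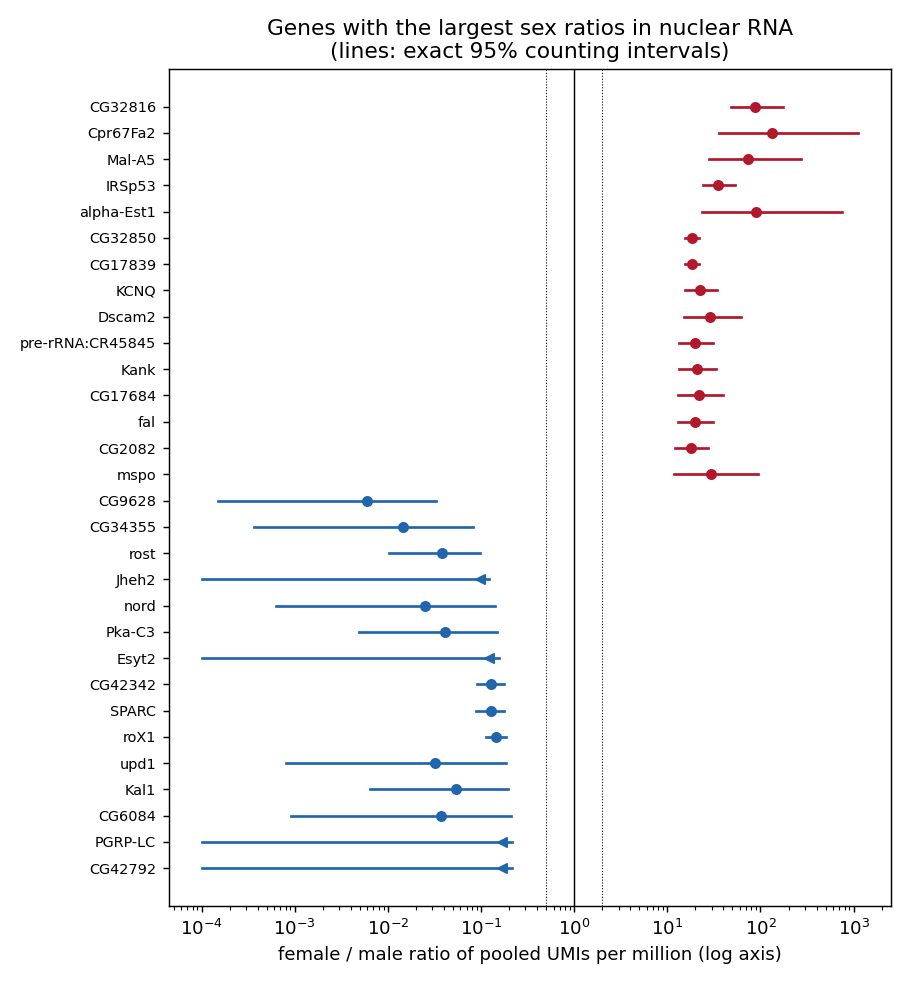
Ratio of pooled CPM in the 36 female to the 49 male SGP nuclei on a log axis, for the 15 genes in each direction whose interval lies farthest from 1. Lines are exact 95% counting intervals, left arrowheads mark bounds for genes with 0 female UMIs (their lines are drawn down to 0.0001), and dotted lines mark 2-fold. Every point lies beyond 2-fold, from 132 for Cpr67Fa2 to 0.00593 for CG9628.

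The summed level of the 2 gene groups in each nucleus is a description, since the genes were selected on these nuclei. The 15 female genes together were at 3376 to 26725 CPM in female nuclei (median 11228) and at 0 to 6214 CPM in male nuclei (median 594). The 15 male genes were at 0 to 4825 CPM in females (median 389) and at 344 to 36332 CPM in males (median 5395). The female sum exceeded the male sum in 36 of 36 female and in 4 of 49 male nuclei. In the 4 female nuclei with at least 8 roX1 UMIs the medians were 5334 CPM for the female and 3646 CPM for the male genes. In the 24 female nuclei with 0 roX1 UMIs they were 11128 and 186 CPM. roX1 is itself among the 15 male genes. The 12 unsexed nuclei, which did not enter the choice of genes, were split evenly, 6 with the female sum higher, and 10 of them held RNA of both groups.

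**Figure D3:**
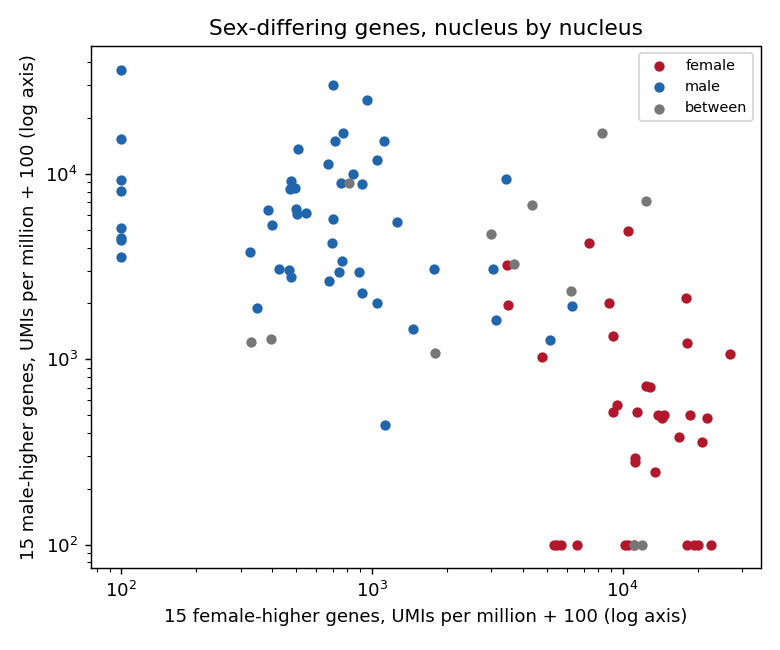
Summed CPM of the 15 male-higher genes against those of the 15 female-higher genes in each of the 97 nuclei, with 100 added to both and log axes. Most female nuclei (red) lie at the lower right and most male nuclei (blue) at the upper left. The 12 unsexed nuclei (grey) spread over both areas, 6 of them with the female sum higher.

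Male nuclei were not uniform. As a split chosen after seeing the values, the 19 male nuclei with a Six4 UMI were set against the 30 without. CG9628 was at 684 CPM (624 to 748) with Six4 and 34.9 CPM (15.1 to 68.8) without, in 17 of 19 and 3 of 30 nuclei. CG34355 (277 and 13.1 CPM), Kal1 (148 and 21.8 CPM), Abd-B (128 and 26.2 CPM), SPARC (1110 and 192 CPM), and CG42342 (1144 and 340 CPM) differed in the same direction. In contrast, wb was at 438 and 410 CPM, Wnt4 at 154 and 157 CPM, and rost at 314 and 380 CPM. Pka-C3 was lower with Six4 (131 against 223 CPM).

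Six4-positive nuclei were deeper, with a median of 8983 UMIs against 3049. Among nuclei up to 30000 UMIs (13 with and 27 without Six4) the contrast was larger. There CG9628 was at 2165 and 72.6 CPM, Kal1 at 592 and 18.1 CPM, and Abd-B at 410 and 45.4 CPM, whereas Pka-C3 was at 22.8 and 218 CPM. wb, which was even between all 19 and 30 nuclei, was at 991 and 263 CPM there, and Wnt4 stayed even at 228 and 218 CPM. Most male UMIs of CG9628 (481 of 489) and of CG34355 (195 of 198) came from Six4-positive nuclei, which held 703485 of all 932681 male UMIs.

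**Figure D4:**
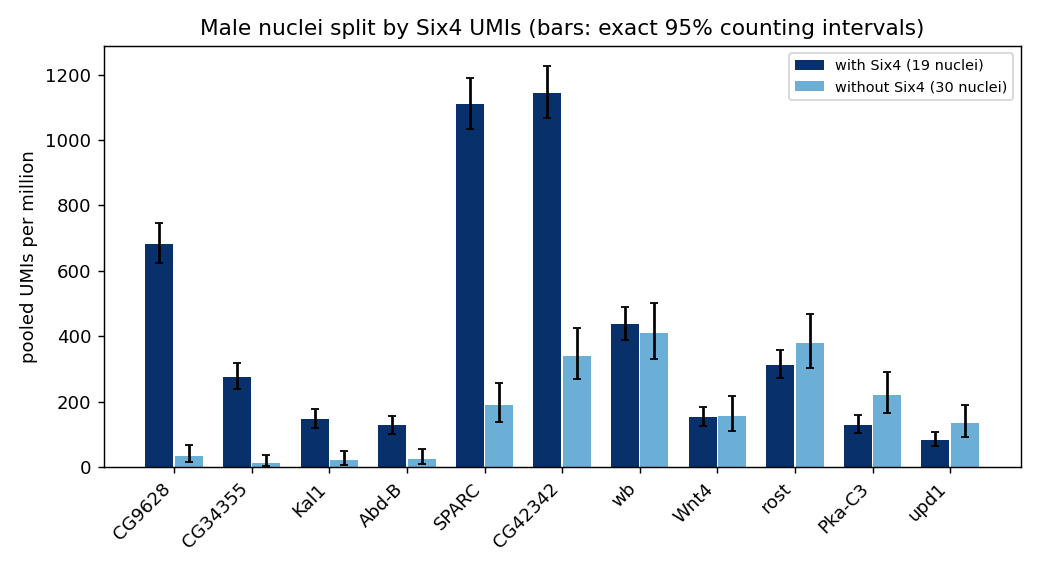
Pooled CPM of 11 genes in the 19 male nuclei with and the 30 without a Six4 UMI, with exact 95% counting intervals. The first 6 genes, from CG9628 (684 and 34.9 CPM) to CG42342, are higher with Six4, while wb, Wnt4, and rost are similar in height and Pka-C3 and upd1 are lower.

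Of the sex determination genes, dsx was the one past 2-fold. dsx had 445 CPM in females and 168 CPM in males, 2.64-fold higher in females (2.09 to 3.34) and 2.84-fold without the deep nuclei. Its median per nucleus was 468 CPM in females (0 to 2016) and 78.8 CPM in males (0 to 1598), and germ nuclei held it at 30.7 and 15.9 CPM. Sxl was at 398 and 225 CPM (1.77-fold, 1.41 to 2.21), under 2-fold. UMIs of tra (9 and 15), tra2 (10 and 21), fru (0 and 3), and msl-2, the limiting MSL protein (3 and 10), were too few for a comparison. The counts cannot tell the sex-specific splice forms of Sxl, tra, and dsx apart.

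Over 19 lists of sex determination, signaling, matrix, adhesion, and cell cycle genes, 125 genes of 333 reached 50 UMIs, of which 16 were past 2-fold in females and 14 in males, 12.8% and 11.2% beside the 8.57% and 10.5% of all genes. These shares lie near the background, and pathways were not compared with each other. In the Wnt list 8 of 24 genes were measured. Wnt6 was at 759 CPM in females and 114 CPM in males (6.68-fold, 5.29 to 8.47) and the receptor fz (frizzled) at 156 and 33.2 CPM (4.68-fold, 2.93 to 7.58). Opposite to these, the ligand Wnt4 was at 40.4 and 154 CPM and the Ryk-type receptor drl had 3 and 114 UMIs.

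In the JAK-STAT list, 8 of 12 genes measured, the ligands upd1 (1 and 90 UMIs) and upd3 (1 and 54 UMIs) were higher in males. Both were found in few male nuclei, upd1 in 14 and upd3 in 12 of 49, and without the deep nuclei upd3 had 1 and 7 UMIs. Socs36E, a feedback inhibitor of the pathway, was 2.14-fold higher in females (1.75 to 2.61) and 1.68-fold without the deep nuclei. In the EGF receptor list the ligand Krn (Keren) had 6 UMIs in females and 95 in males, while pnt, a nuclear effector, was at 280 and 115 CPM (2.44-fold, and 1.65-fold without the deep nuclei). For FGF, the ligand pyr was at 87.1 and 110.4 CPM, a ratio of 0.79 with an interval of 0.50 to 1.21, and bnl had 1 and 8 UMIs.

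The BMP modulator magu had 6 UMIs in 4 female nuclei and 162 in 23 male nuclei, a 9.31-fold difference (4.18 to 25.7) that was 4.73-fold without the deep nuclei. The Smad gene Smox was 2.53-fold higher in females (4.53-fold without the deep nuclei). The receptor N (Notch) was at 865 and 229 CPM, 3.77-fold higher in females (3.14 to 4.52, and 2.20-fold without the deep nuclei), and its level in germ nuclei was also high at 490 and 370 CPM. In the Toll list the transcription factor dl and its inhibitor cact were higher in females (7.04-fold and 2.21-fold, or 3.98-fold and 2.57-fold without the deep nuclei) and the receptor Tollo in males (28.0 and 79.3 CPM). The Toll ligand spz gave 8 and 14 UMIs.

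In the ecdysone list 3 of 6 measured genes were past 2-fold in females and 0 in males, beside 8.57% and 10.5% of all genes. These were the nuclear receptors ftz-f1 (939 and 342 CPM, 2.75-fold), EcR (112 and 44.0 CPM, 2.55-fold), and Hr4 (115.1 and 32.2 CPM, 3.58-fold, and under 2-fold at 1.93 without the deep nuclei). Of the transcription factors of the gonadal soma, 3 of 10 were past 2-fold in females and 0 in males. Lists this small, chosen with earlier results known, are only described beside the 8.57% and 10.5% of all genes. odd, a zinc finger gene, had 54 UMIs in 12 female nuclei and 6 in males, 26.1-fold apart (11.7-fold without the deep nuclei). hth was at 638 and 204 CPM (3.13-fold, 2.08-fold without the deep nuclei), although among nuclei without any germ UMI (11 female, 15 male) its ratio fell to 0.38, and esg was at 311 and 154 CPM (2.01-fold, 5.80-fold without the deep nuclei). CG5149, which the study uses as a marker of female SGPs and gives as known before, was at 451 and 34.3 CPM (13.1-fold, 8.91 to 19.9), in 22 of 36 female and 13 of 49 male nuclei.

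Of the basement membrane list 0 of 8 measured genes were past 2-fold in females and 2 in males. Of the adhesion list these were 1 of 16 in females and 3 in males. Over all genes the shares were 8.57% and 10.5%, and counts this small are a description. Besides SPARC, the laminin alpha chain gene wb was at 65.3 CPM in females and 431 CPM in males, 6.60-fold higher (4.26 to 10.8), while the laminin subunits LanA, LanB1, and LanB2 had ratios of 1.35, 1.23, and 0.92. CadN (N-cadherin), a homophilic adhesion protein, was at 149 and 643 CPM, 4.31-fold higher in males (3.21 to 5.91) and 2.56-fold without the deep nuclei. The leucine-rich repeat gene trn had 2 and 54 UMIs and the teneurin Ten-a 32 and 221, while Con (connectin) was 2.89-fold higher in females (2.53 to 3.30). Without the nuclei that held at least 3 UMIs of muscle, neuron, glia, or hemocyte markers, the ratio of Ten-a turned to 1.12.

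A smaller share of autosomal peaks than of genes was past 2-fold between the sexes. The 2 readouts differ in depth and in its spread over nuclei, so these shares cannot compare chromatin with RNA. Of 3304 autosomal peaks with at least 50 ATAC counts over both sexes, 48 were at least 2-fold higher in females (1.45%) and 54 in males (1.63%), scaled to the autosomal counts of each sex. The whole interval lay past 2-fold for 8 peaks higher in females and for 0 higher in males. By the mean over nuclei as well, 34 peaks remained past 2-fold in each direction. Of these, 12 of the female and 17 of the male peaks lay within 250 bp of an annotated start, 35.3% of the female peaks beside 73.6% of all peaks measured.

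At gene starts, accessibility and RNA went together for a few genes. The start of rost, on chromosome 2L, lies in a peak at chr2L:8989143-8989756 (BDGP6) with 19 ATAC counts in female and 93 in male nuclei, 2.83-fold higher in males (1.71 to 4.91), in 10 and 35 nuclei. A peak over an annotated start of Pka-C3, at chr3L:15952456-15954184, had 13 and 68 counts (3.02-fold, 1.66 to 5.97). Pka-C3 reaches farther upstream, to 15954797, outside this peak. Its 2 peaks at starts together had 18 and 90 counts (2.89-fold, 1.73 to 5.10). Both genes were among the 15 with the largest male RNA ratios. Sequences at these starts, 270 bases before to 30 after on the gene's strand, are shown. They were chosen because accessibility there and the RNA of the gene both differed. RNA was counted per gene and not per start.

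rost, chr2L:8989510-8989809, minus strand: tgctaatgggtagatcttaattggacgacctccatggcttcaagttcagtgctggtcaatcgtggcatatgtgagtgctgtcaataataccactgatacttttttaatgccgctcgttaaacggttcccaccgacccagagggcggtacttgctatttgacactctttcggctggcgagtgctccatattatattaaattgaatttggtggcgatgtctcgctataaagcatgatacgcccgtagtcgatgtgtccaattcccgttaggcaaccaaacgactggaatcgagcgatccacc
Pka-C3, chr3L:15952964-15953263, minus strand: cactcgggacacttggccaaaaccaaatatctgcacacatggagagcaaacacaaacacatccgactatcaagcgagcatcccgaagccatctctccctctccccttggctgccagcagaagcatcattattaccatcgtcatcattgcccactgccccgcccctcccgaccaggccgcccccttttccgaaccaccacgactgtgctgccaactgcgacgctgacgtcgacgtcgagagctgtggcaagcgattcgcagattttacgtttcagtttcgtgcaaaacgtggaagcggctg

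Introns gave further examples. A peak in an intron of cdi, a kinase gene, at chr3R:19059683-19060568, had 11 and 62 counts (3.26-fold higher in males, 1.70 to 6.86), and cdi RNA was at 159 and 403 CPM. A pair of peaks in introns of fz were higher in females, chr3L:14287390-14288551 with 40 and 29 counts (2.39-fold, 1.44 to 3.99) and chr3L:14346196-14347349 with 44 and 30 counts (2.54-fold, 1.56 to 4.18), beside the 4.68-fold higher RNA. At the start of fz itself there were 39 and 63 counts, a ratio of 1.07 whose interval included 1 (0.70 to 1.62). On the X, a peak in fend at chrX:9131094-9131914 had 80 and 25 counts, 3.23 times the X-wide ratio, and fend RNA was 4.19-fold higher in females (3.26 to 5.41). Accessibility of this X peak also entered the X share that chose the nuclei and is given as a description. The peak over the start of roX1 had 39 counts in females and 75 in males, 0.52 times the X-wide ratio.

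The other autosomal peaks that led in females are named here for genes with little nuclear RNA, of which sbb alone reached 50 UMIs (female to male ratio 0.86, 0.71 to 1.04). They were a peak at the start of lncRNA:CR45325 on 2R (52 and 13 counts, 6.92-fold, 3.71 to 13.8), one in lncRNA:CR45448 (39 and 11, 6.13-fold), one over coding and 3′ untranslated sequence of pip (57 and 19, 5.19-fold), and peaks in introns of bru2 (54 and 22, 4.25-fold), sbb (47 and 23, 3.53-fold), and rols (37 and 17, 3.76-fold). A peak 3024 bp upstream of a start of the homeobox gene Optix had 71 and 37 counts (3.32-fold), and one at the start of PKD had 35 and 16 (3.78-fold). The pip peak begins at chr3L:19298841, next to the 3' end of fal at 19298830. RNA of fal, one of the leading female genes, was 19.6-fold higher in females. On the male side, peaks near CG34220 (10 and 59), lncRNA:CR44928 (7 and 48), CG9815 (9 and 52), Fem-1 (11 and 57), and Myo61F (15 and 71) were 2.74- to 3.96-fold higher in males.

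Since Dsx proteins of the sexes bind the same element, the 300 bases at the centre of each peak were searched on both strands for its core ACAATGT. It was present in 7 of the 34 female-higher peaks (20.6%, 8.70 to 37.9) and in 1 of the 34 male-higher peaks (2.94%, 0.07 to 15.3). Of all 3304 peaks measured 121 held it (3.66%), and of the 872 that lay away from starts 4.70% did, beside 4 of the 22 female-higher and 1 of the 17 male-higher peaks there. GAGAG, the only other motif searched, was in 13 of the 34 female-higher and 18 of the 34 male-higher peaks, 38.2% and 52.9% beside 46.6% of all. A match is a run of letters, and binding of Dsx was not measured.

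The core stands in one of the fz peaks, in an intergenic peak with 57 and 38 counts (2.59-fold higher in females, 1.69 to 4.02) whose nearest start is that of Syx7, in an intron of nyo (43 and 23 counts, 3.23-fold, 1.91 to 5.62), and, on the male side, in an intron of Plc21C, a phospholipase C gene (12 and 46 counts, 2.22-fold higher in males, 1.16 to 4.60) whose RNA was 3.93-fold higher in males. It was also in the peaks at lncRNA:CR45325, pip, twz, and CG45095. The 4 windows outside exons are shown on the plus strand with the core or its reverse complement in capitals.

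fz intron, chr3L:14346622-14346921: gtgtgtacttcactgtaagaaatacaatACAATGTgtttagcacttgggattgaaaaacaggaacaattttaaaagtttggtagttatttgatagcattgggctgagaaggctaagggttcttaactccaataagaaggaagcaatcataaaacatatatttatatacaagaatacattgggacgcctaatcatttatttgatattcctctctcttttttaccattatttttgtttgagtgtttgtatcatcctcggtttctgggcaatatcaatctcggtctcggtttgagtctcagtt
intergenic, chr3L:21453571-21453870: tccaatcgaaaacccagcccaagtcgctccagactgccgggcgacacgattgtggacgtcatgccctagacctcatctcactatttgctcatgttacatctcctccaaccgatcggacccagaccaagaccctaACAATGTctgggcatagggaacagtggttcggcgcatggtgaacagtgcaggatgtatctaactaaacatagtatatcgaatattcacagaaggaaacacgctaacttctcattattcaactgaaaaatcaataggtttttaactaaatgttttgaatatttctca
nyo intron, chr3R:31564151-31564450: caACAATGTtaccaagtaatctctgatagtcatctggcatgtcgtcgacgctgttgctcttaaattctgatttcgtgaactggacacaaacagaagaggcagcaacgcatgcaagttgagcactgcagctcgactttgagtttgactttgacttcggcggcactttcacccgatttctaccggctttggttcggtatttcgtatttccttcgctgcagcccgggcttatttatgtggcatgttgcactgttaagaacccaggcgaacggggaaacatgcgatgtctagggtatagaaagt
Plc21C intron, chr2L:306788-307087: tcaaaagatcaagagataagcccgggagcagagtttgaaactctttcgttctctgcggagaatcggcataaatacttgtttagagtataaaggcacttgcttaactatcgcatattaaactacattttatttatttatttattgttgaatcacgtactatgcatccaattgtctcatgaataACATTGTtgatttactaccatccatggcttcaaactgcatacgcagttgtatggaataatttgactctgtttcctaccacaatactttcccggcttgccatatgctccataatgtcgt

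Over all genes the link between RNA and accessibility at starts was weak. For 1486 autosomal genes with at least 20 ATAC counts in peaks within 250 bp of a start, the median ratio of female to male counts was 0.98. It was 1.06 for the 69 genes past 2-fold higher in female RNA, with 44 above 1, and 0.93 for the 121 genes higher in male RNA, with 70 below 1. Of the 69 genes, 9 had an interval wholly above 1 and 1 wholly below it. Of the 121 genes, 8 had it wholly below 1 and 3 wholly above it, against the RNA. Over all 1486 genes these counts were 52 above and 62 below. alpha-Est1 (16 and 12 counts, 2.31-fold, 1.02 to 5.34) and EcR (215 and 281 counts, 1.32-fold, 1.10 to 1.59) were more accessible in females, and nord (41 and 114 counts, 1.61-fold, 1.12 to 2.36) and PGRP-LC (3 and 20 counts, 3.85-fold, 1.14 to 20.3) in males. In contrast, the starts of SPARC (20 and 34 counts, ratio 1.02), IRSp53 (9 and 15, 1.04), Wnt6 (53 and 78, 1.18), and dsx (41 and 83, 0.85) gave ratios whose intervals included 1, although their RNA differed over 2-fold. For CG17839 (10 and 28) and CG5149 (13 and 41) the ratios were 0.62 and 0.55, against RNA that was higher in females, with intervals that included 1.

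**Figure D5:**
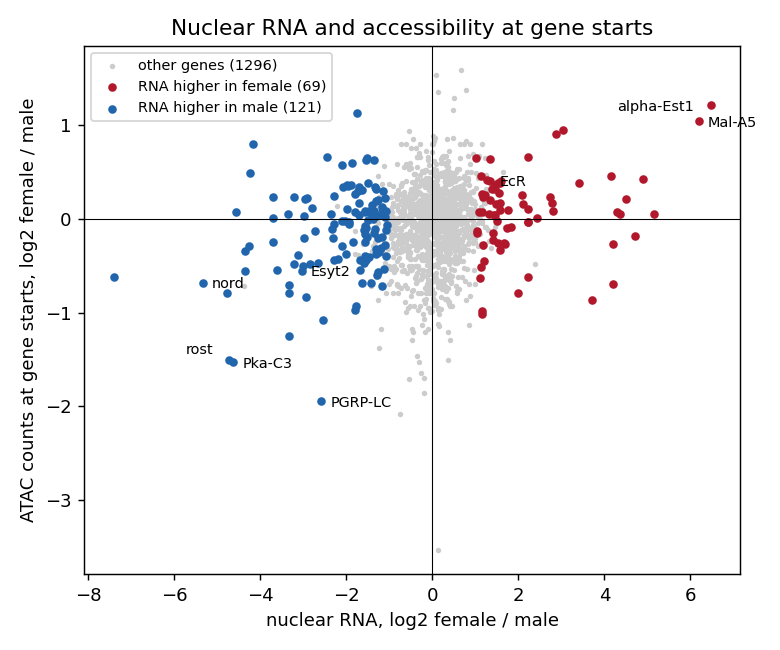
Log2 ratio of female to male ATAC counts in peaks at gene starts against the log2 ratio of nuclear RNA, for 1486 autosomal genes, with the 69 genes higher in female RNA in red and the 121 higher in male RNA in blue. Most coloured points stay near 0 on the vertical axis, with rost, Pka-C3, and PGRP-LC low on the male side and alpha-Est1 and Mal-A5 high on the female side.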

How the data were processed

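For the multiome library the authors aligned reads with Cell Ranger ARC 1.0.0 to the BDGP6 assembly, removed empty droplets, doublets (scDblFinder), and nuclei under 1000 nuclear RNA counts, called peaks with MACS2, applied further quality filters in Signac, and deposited raw counts, as UMIs per gene and ATAC counts per peak, for each nucleus. The sources used here do not say whether an ATAC count is a fragment or a cut end. No doublet caller was run again. The other single-cell files were not used here.

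Counts were summed over the nuclei of a sex, scaled to 1000000 UMIs or autosomal ATAC counts, and compared as ratios with exact conditional (Clopper-Pearson) 95% intervals. Genes and peaks needed 50 counts over both sexes. Thinning used seed 1. Genes named were fixed sex genes, up to 4 per list and direction, and the 15 in each direction whose interval bound nearest 1 was farthest from it. For autosomal peaks the 8 ranked so in each direction were taken, and for X peaks 5. Members and lists were chosen with earlier results of these data known. Of the genes 99.1% were placed in a later Ensembl annotation of BDGP6, and those not placed held 0.361% of UMIs. Sequences were read from the RefSeq copy of the same assembly, whose chromosomes held all peaks. Python 3.11.15, numpy 2.4.6, pandas 2.3.3, and scipy 1.17.1 were used, and the ratios were tested on simulated data. Alternatives varied the choice of nuclei, the scaling, the depth, and the minimum counts.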

Additional observations from a re-analysis of the deposited data

How the results depend on the processing

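The alternatives changed counts of genes and peaks more than directions. Of 332 values of the 30 leading genes under 12 alternatives, 251 lay within the counting interval, 81 lay outside it, and 0 turned. Of 158 values of the 16 leading peaks, 150 lay within it and 0 turned. These genes and peaks were selected on the same nuclei, of which many alternatives keep a part. That 0 turned is therefore a description and no separate support. Among all named genes past 2-fold, hth turned without germ UMIs (ratio 0.38) and Ten-a without nuclei holding other markers (1.12).

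Female and male nuclei numbered 20 and 30 with 3 marker UMIs and 11 and 15 without germ UMIs. Genes past 2-fold, 170 and 209, came to 14 and 7 without germ UMIs, 69 and 44 without nuclei holding other cell type markers, 78 and 67 without nuclei over 30000 UMIs (chosen after seeing the data, as were the tj and Wnt2 subsets), 16 and 11 after thinning to 1000 UMIs, and 368 and 502 from 20 UMIs up. Fewer genes were measured in all of these but the last. Of the genes past 2-fold that were still measured without nuclei over 30000 UMIs, 62 of 88 and 43 of 53 remained past 2-fold. Peaks, 48 and 54, came to 0 and 0 without germ UMIs (37 measured), 14 and 8 without other markers, 0 and 0 after thinning to 800 counts (21 measured), 5 and 3 from 100 counts up, and 134 and 179 by the mean over nuclei. They were 36 and 10 without nuclei over 30000 UMIs and 43 and 34 within tj-positive nuclei. The ratio of X-linked to autosomal RNA, 1.09, was 1.07 without germ UMIs, 1.06 without the deepest nucleus of each sex, 1.06 as a median over nuclei, and 1.10 without the roX genes. The cause of these shifts was not tested beyond the numbers measured. No paired analysis was possible because there was 1 library. Depth limits the peaks, since the 36 female nuclei held 199237 autosomal ATAC counts.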
